A study of Homo sapiens with 9 samples.

Results

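The 10 genes described here encode chaperones and folding enzymes of the endoplasmic reticulum (ER): HSPA5, DNAJB11, SDF2L1, HYOU1, MANF, HSP90B1, PDIA4, PDIA6, CRELD2 and CALR. They were found by exact symbol in a table of 23621 gene rows. All 10 were present, and all 10 passed the minimum mean of 1 FPKM over the 9 libraries (FPKM, fragments scaled to transcript length and library size) that admitted 12301 genes to testing. Polyadenylated RNA had been sequenced after 6 h of treatment in MOLT4, an established human line derived from a T-cell acute lymphoblastic leukemia. There were 3 libraries titled MI-389, 3 titled sunitinib and 3 of cells given 0.1% DMSO, the vehicle. Sunitinib is a kinase inhibitor, and MI-389 is a phthalimide conjugate according to the series design.

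The labels of the treated libraries conflict. For libraries titled MI-389 the source field reads sunitinib, 1 µM, and for libraries titled sunitinib it reads MI-389, 0.1 µM. Titles, column names and the barcode list accord with each other, so groups are given as titled; should the source field hold instead, the compound names below trade places. The doses were not matched, so values of the 2 treated groups differ by compound and dose together. Nothing in the labels says that the 3 libraries of a group came from separate cultures, and the p-values therefore refer to a spread between libraries that may be technical alone.

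Proteins that enter the ER are folded by an ATP-driven chaperone of the HSP70 family, HSPA5 (BiP), with J-domain partners that load it and exchange factors that reset it. HSP90B1 (GRP94) takes partly folded clients, disulfide isomerases pair their cysteines, and CALR holds glycoproteins through their sugars and binds calcium. When unfolded protein accumulates, the sensors ATF6, ERN1 (IRE1) and EIF2AK3 (PERK) are released, and ATF6 and spliced XBP1 raise transcription of these chaperones, which makes the group a classical readout of the unfolded protein response.

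In libraries titled MI-389, the 10 genes all passed the test as lower than in DMSO (limma on log2(FPKM + 1), Benjamini-Hochberg adjustment over all tested genes), with HSPA5 4.67-fold lower and DNAJB11 1.16-fold lower as the extremes. The same call was made for 28.3% of all tested genes. The median log2 difference of the 10 was −1.08, against −0.00 over all tested genes. In libraries titled sunitinib, 9 of the 10 passed as lower than in DMSO, a call made for 16.9% of all tested genes, and CRELD2 did not pass. The median log2 difference was −0.65, against −0.10 over all tested genes. For all 10 genes, every library of each treated group lay below every DMSO library, which 29.7% of all tested genes showed in MI-389 and 29.3% in sunitinib. Both comparisons use the same 3 DMSO libraries. In this bulk RNA, fewer cells of a kind and less RNA per cell cannot be told apart.

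**Figure D1:**
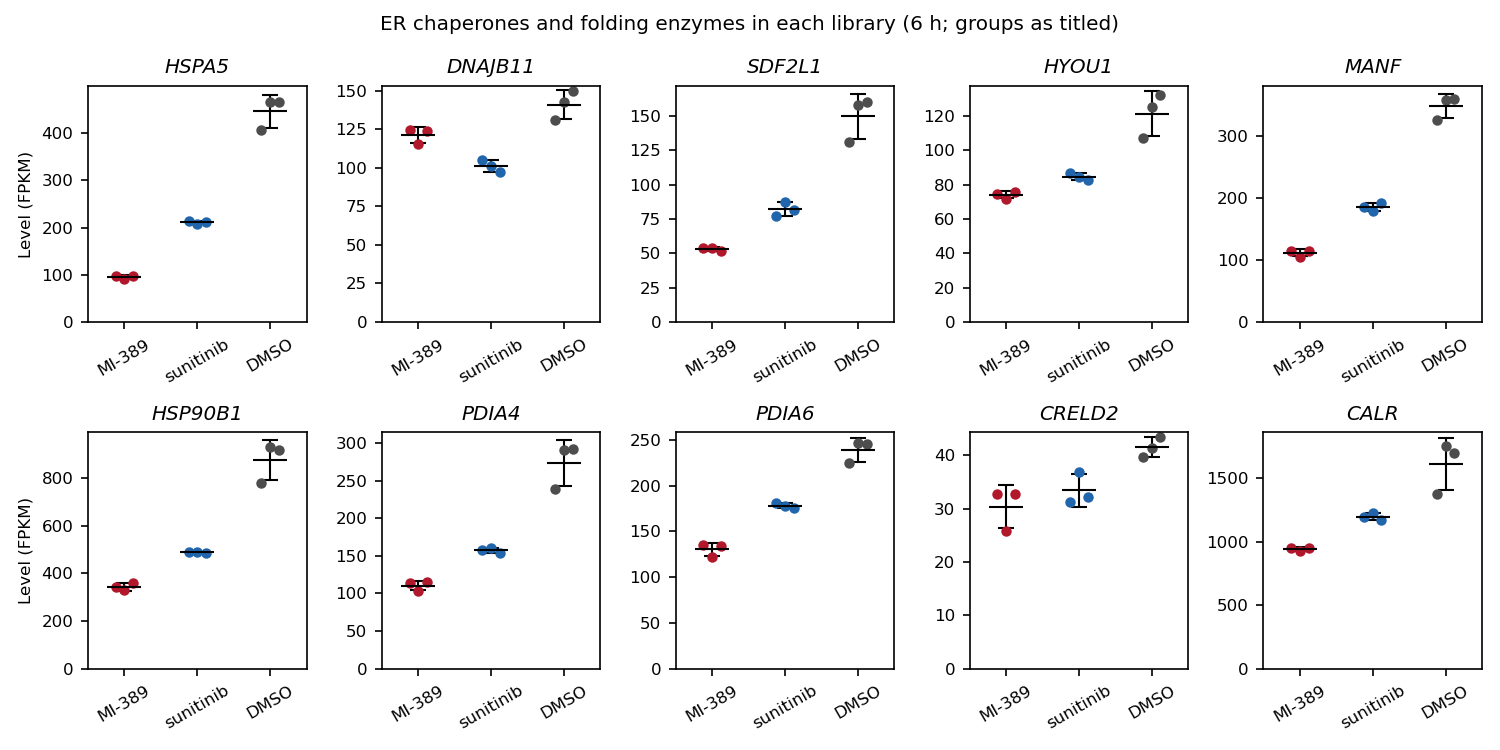
Level of each of the 10 genes (FPKM, linear axis from 0) in every library, with points for libraries, long bars for group means and whiskers for the SD (n = 3). For all 10 genes the DMSO libraries lie above every library of both treated groups, and DNAJB11 is the gene whose MI-389 libraries lie above its sunitinib libraries.

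The libraries were checked first against the cell line. Of 11 T-cell leukemia markers, 10 averaged at least 10 FPKM over the libraries, CD4 being the low one. The summed level of the 11 was 2451 to 2580 FPKM in MI-389, 2609 to 2711 FPKM in sunitinib and 2385 to 2928 FPKM in DMSO. Single markers differed between groups in either direction. TAL1 averaged 10.4 FPKM in MI-389, 21.9 FPKM in sunitinib and 29.9 FPKM in DMSO. RAG1 averaged 69.0 FPKM in MI-389, 86.7 FPKM in sunitinib and 57.3 FPKM in DMSO. The defining markers of myeloid cells were all below the testing minimum, as were 4 of 5 epithelial and fibroblast markers and 2 of 3 B cell markers. Within groups, libraries correlated across genes at r of 0.9946 or more. Between groups, r reached 0.9938 for sunitinib with DMSO, close to that minimum, and at most 0.9746 for MI-389 with either other group. DMSO replicate 1 had the lowest value of the DMSO libraries for all 10 members. Without it the number of members called lower was 10 in both comparisons with DMSO, and the background of lower calls in the sunitinib comparison was 32.1% of tested genes; without sunitinib replicate 2 that background was 6.55%, and under cyclic loess 15.9%, with 1852 genes higher in place of 291.

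Promoter sequence was examined because the response elements of this gene group are defined by short sequences. Since the elements searched are those already known for this group, their matches in member windows are a description. The shares of other windows are given for scale and do not make the matches an independent enrichment. In the ER stress response element, ERSE, NF-Y is known to bind the CCAAT box while ATF6 and XBP1 bind CCACG. ERSE-II holds both boxes in another arrangement. RefSeq promoter windows (GRCh38.p14, 250 bases before to 50 bases after a start site) were found for 10 of 10 genes, in 12 windows. ERSE, searched on both strands as CCAAT, 9 bases of any kind and CCACG, occurred in 0.0769% of 35116 windows, in 0.126% of the 12679 windows of tested genes, and in 5 of the 12 member windows, each of another gene. ERSE-II, searched likewise as ATTGG, 1 base of any kind and CCACG, occurred in 0.0541% of all windows, in 0.0946% of those of tested genes, and in HYOU1 and SDF2L1. The matches are shown with 8 bases on each side, read 5′ to 3′ on the strand that carries the motif, with its fixed letters in capitals. Coordinates are those of the whole stretch shown.
HSPA5: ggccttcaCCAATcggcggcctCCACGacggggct
HSP90B1 first: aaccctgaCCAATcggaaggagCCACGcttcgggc
HSP90B1 second: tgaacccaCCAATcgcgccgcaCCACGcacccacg
PDIA6: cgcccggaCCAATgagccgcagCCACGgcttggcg
CRELD2: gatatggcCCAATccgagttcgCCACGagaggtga
CALR: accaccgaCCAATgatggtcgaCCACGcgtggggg
SDF2L1: gggttttgATTGGtCCACGcttccgag
HYOU1 first: ggcctgggATTGGaCCACGtcacgggg
HYOU1 second: gcgtactcATTGGaCCACGtcccaggc

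The HSPA5 stretch lies at chr9:125241383-125241417 on the minus strand, and the match within it ends 47 bases upstream of the start site. The HSP90B1 stretches lie at chr12:103930208-103930242 (plus) and chr12:103930313-103930347 (minus), and that of PDIA6 at chr2:10812845-10812879 (minus). Those of CRELD2 and CALR lie at chr22:49918546-49918580 (minus) and chr19:12938376-12938410 (minus). The stretches around ERSE-II lie at chr22:21642106-21642132 (minus) for SDF2L1, and at chr11:119057372-119057398 and chr11:119057266-119057292 (both plus) for HYOU1. All 9 matches lie upstream of a start site.

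DNAJB11, MANF and PDIA4 had no exact match to either element in their windows. Only exact matches were searched, so copies that differ in a fixed letter are not counted for any gene. CCAAT alone was present in 11 of 12 member windows, against 35.2% of the windows of tested genes and 34.6% of all windows. CCACG was present in 10 of 12 member windows, against 48.7% of the windows of tested genes and 38.1% of all windows. Both are boxes of ERSE, and CCACG and the reversed CCAAT are parts of ERSE-II. UPRE, the XBP1 element TGACGTGG, which contains CCACG on its other strand, occurred in 0.729% of windows and in HYOU1, overlapping its first ERSE-II. The ATF4-type element TGATGNAA (3.62% of windows) and the heat-shock element, GAA, 2 bases, TTC, 2 bases and GAA (0.490% of windows), also searched on both strands, occurred in no member window. A match describes the letters of a window and does not show that it is bound. The promoters of HSPA5 and DNAJB11, the genes with the largest and smallest difference in MI-389, are shown whole upstream of the start site, at chr9:125241344-125241593 (minus) and chr3:186570470-186570719 (plus), with CCAAT and CCACG of either strand in capitals.
HSPA5: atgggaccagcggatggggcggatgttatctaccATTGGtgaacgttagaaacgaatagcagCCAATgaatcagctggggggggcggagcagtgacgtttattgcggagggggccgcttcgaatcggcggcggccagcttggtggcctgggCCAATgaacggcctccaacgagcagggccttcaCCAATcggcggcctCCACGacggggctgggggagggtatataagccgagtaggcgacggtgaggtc
DNAJB11: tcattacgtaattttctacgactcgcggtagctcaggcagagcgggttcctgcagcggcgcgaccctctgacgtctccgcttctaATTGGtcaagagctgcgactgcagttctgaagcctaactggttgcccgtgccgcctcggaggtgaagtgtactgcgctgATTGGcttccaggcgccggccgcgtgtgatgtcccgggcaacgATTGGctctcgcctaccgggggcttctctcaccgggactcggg

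**Figure D2:**
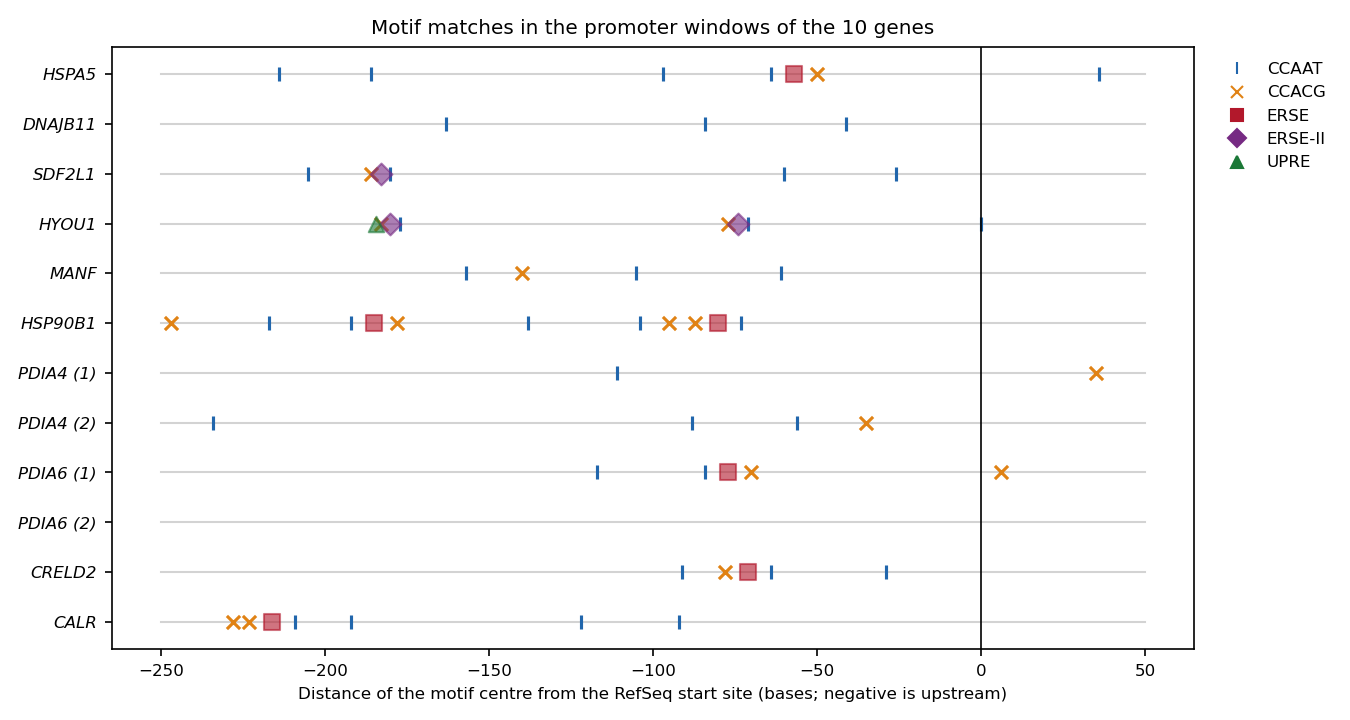
Position of motif matches (both strands) in the promoter windows of the 10 genes, with the distance of the match centre from the RefSeq start site on the x axis (bases, negative upstream) and 1 line per window. HSPA5, HSP90B1, PDIA6, CRELD2 and CALR carry ERSE, SDF2L1 and HYOU1 carry ERSE-II, and the second PDIA6 window carries no match.

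The HSP70 system of the ER held both the largest and the smallest difference in MI-389 against DMSO. HSPA5, the HSP70 chaperone itself, stood at 97.9, 91.0 and 97.7 FPKM in MI-389, at 214, 207 and 212 FPKM in sunitinib, and at 407, 465 and 467 FPKM in DMSO. The 3 groups occupied separate ranges, with MI-389 lowest. The log2 difference was −2.21 ± 0.0635 (SE) for MI-389 against DMSO (95% interval −2.35 to −2.07, adjusted p = 1.73e-08). For sunitinib against DMSO it was −1.07 (−1.22 to −0.93, adjusted p = 0.000241), a 2.12-fold lower level. Counted from the most negative of the 12301 log2 differences, HSPA5 stood at position 27 in MI-389 and 66 in sunitinib.

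DNAJB11 (ERdj3), a J-domain protein that brings clients to HSPA5, stood at 124, 115 and 124 FPKM in MI-389, 105, 101 and 97.1 FPKM in sunitinib, and 131, 142 and 149 FPKM in DMSO. Its order differed from that of the other 9 genes, since the MI-389 libraries lay above the sunitinib libraries. The log2 difference from DMSO was −0.21 in MI-389 (−0.35 to −0.08, adjusted p = 0.0146) and −0.47 in sunitinib (−0.61 to −0.33, adjusted p = 0.0025). Without MI-389 replicate 2 the MI-389 difference of DNAJB11 was −0.18 and did not pass (adjusted p = 0.0586, the highest over 22 alternatives, whose lowest was 6.15e-05). Over those alternatives the difference ranged between −0.29 and −0.07, the smallest under cyclic loess, with −0.09 under quantile normalization.

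SDF2L1, which works with DNAJB11 in keeping clients soluble, stood at 54.0, 53.9 and 51.5 FPKM in MI-389, 77.1, 87.2 and 81.6 FPKM in sunitinib, and 131, 158 and 160.2 FPKM in DMSO. No libraries overlapped between groups. It was 2.81-fold lower in MI-389 (log2 difference −1.47, −1.65 to −1.29, adjusted p = 9.02e-07) and 1.83-fold lower in sunitinib (−0.86, −1.04 to −0.67, adjusted p = 0.000613), both against DMSO.

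HYOU1 (GRP170) is an HSP70 relative that exchanges the nucleotide of HSPA5. It stood at 74.6, 71.9 and 76.0 FPKM in MI-389, 86.6, 84.6 and 82.7 FPKM in sunitinib, and 107, 125 and 132 FPKM in DMSO. The 2 treated groups lay close together and below DMSO. The log2 difference was −0.70 in MI-389 (−0.86 to −0.54, adjusted p = 3.87e-05) and −0.51 in sunitinib (−0.68 to −0.35, adjusted p = 0.00311).

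MANF, a small secreted ER protein that binds the nucleotide-binding part of HSPA5, stood at 115, 106 and 115 FPKM in MI-389, 186, 179 and 192 FPKM in sunitinib, and 326, 359 and 360.4 FPKM in DMSO. It came after HSPA5 as the most lowered of the 10 in both treated groups. The difference was 3.11-fold in MI-389 (log2 −1.63, −1.76 to −1.49, adjusted p = 7.39e-08) and 1.87-fold in sunitinib (log2 −0.90, −1.04 to −0.77, adjusted p = 0.000247).

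HSP90B1, the HSP90 chaperone of the ER, stood at 341, 328 and 360.0 FPKM in MI-389, 487, 489 and 487 FPKM in sunitinib, and 778, 930.2 and 916 FPKM in DMSO. The ranges of the 3 groups did not overlap. It was 2.55-fold lower in MI-389 than in DMSO (log2 −1.34, −1.51 to −1.18, adjusted p = 8.39e-07). In sunitinib it was 1.79-fold lower than in DMSO (log2 −0.84, −1.001 to −0.67, adjusted p = 0.000567).

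Among the disulfide enzymes, PDIA4 (ERp72) and PDIA6 (P5), isomerases found with HSPA5 in chaperone complexes, both fell in both treated groups. PDIA4 stood at 114, 103 and 115 FPKM in MI-389, 158, 161 and 154 FPKM in sunitinib, and 239, 291 and 292 FPKM in DMSO. Its log2 difference was −1.30 in MI-389 (−1.48 to −1.11, adjusted p = 1.91e-06) and −0.79 in sunitinib (−0.97 to −0.60, adjusted p = 0.00103). Per transcript length, PDIA6 had the higher mean of the pair in both treated groups. PDIA6 stood at 135, 122 and 134 FPKM in MI-389, 181, 177 and 176 FPKM in sunitinib, and 224, 247 and 245 FPKM in DMSO. Its log2 difference was −0.87 in MI-389 (−1.002 to −0.74, adjusted p = 2.99e-06) and −0.42 in sunitinib (−0.55 to −0.29, adjusted p = 0.00302), and −0.27 in sunitinib under quantile normalization.

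CRELD2, a secreted-pathway protein with isomerase activity, had the lowest level of the 10. It stood at 32.8, 25.7 and 32.7 FPKM in MI-389, 31.2, 36.9 and 32.2 FPKM in sunitinib, and 39.7, 41.5 and 43.4 FPKM in DMSO. The treated groups overlapped each other and lay below DMSO. CRELD2 was lower in MI-389 (log2 −0.45, −0.67 to −0.22, adjusted p = 0.00357). The difference in sunitinib was −0.31 (−0.53 to −0.09, adjusted p = 0.0554) and missed the threshold of 0.05; it passed under 6 of 22 alternatives, among them robust variance (adjusted p = 0.00661, the lowest of the 22; the highest was 0.162), and was −0.20 under quantile normalization.

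CALR (calreticulin), the lectin chaperone and calcium-binding protein of the ER lumen, had the highest level of the 10. It stood at 946, 925 and 950.1 FPKM in MI-389, 1191, 1223 and 1171 FPKM in sunitinib, and 1377, 1756 and 1699 FPKM in DMSO. The groups did not overlap, with the widest spread in DMSO. The log2 difference was −0.77 in MI-389 (−0.96 to −0.57, adjusted p = 5.82e-05) and −0.42 in sunitinib (−0.62 to −0.23, adjusted p = 0.0111). The CALR mean of 1610.5 FPKM in DMSO lay above the most abundant spike-in RNA, 1523 FPKM. Under cyclic loess, a scaling that levels abundant genes between libraries, the CALR difference in MI-389 was −0.41, and under quantile normalization −0.48.

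**Figure D3:**
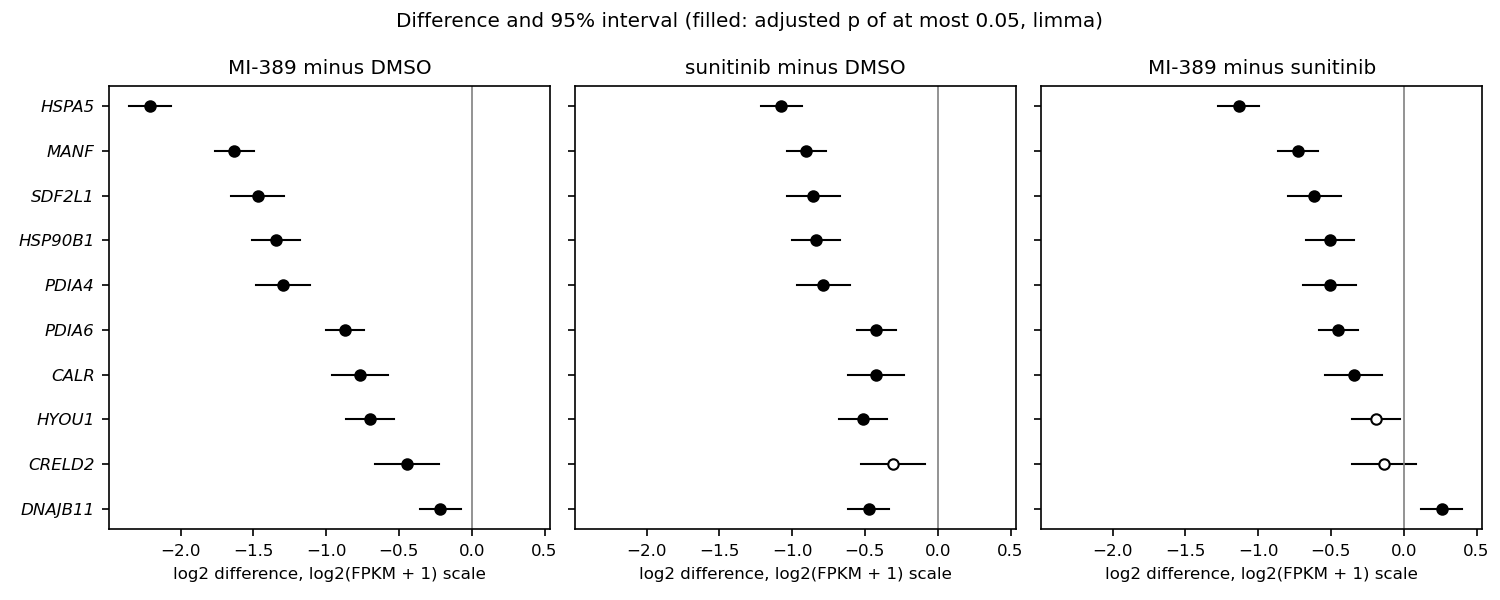
Log2 difference (log2(FPKM + 1) scale) of each gene with its 95% interval from limma, for MI-389 minus DMSO, sunitinib minus DMSO and MI-389 minus sunitinib; filled points passed an adjusted p of 0.05. The MI-389 differences run between −2.21 and −0.21 and those of sunitinib between −1.07 and −0.31, and DNAJB11 alone lies right of 0 in the comparison of the treated groups.

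Set against each other, MI-389 and sunitinib gave different levels for 8 of the 10 genes. Of the 10, 7 were lower in MI-389, a call made for 20.3% of all tested genes, and DNAJB11 was higher, a call made for 36% of them. HSPA5 was 2.21-fold lower in MI-389 (log2 −1.13, −1.28 to −0.99, adjusted p = 1.02e-06), MANF 1.66-fold lower (−0.73, adjusted p = 9.63e-06) and SDF2L1 1.54-fold lower (−0.61, adjusted p = 0.000159). The log2 differences of PDIA4, HSP90B1, PDIA6 and CALR were −0.51, −0.51, −0.45 and −0.35, with adjusted p between 0.000149 and 0.00693. Under cyclic loess the difference was −0.33 for HSP90B1 and −0.10 for CALR, which was −0.19 under quantile normalization. DNAJB11 was 1.20-fold higher in MI-389 (log2 0.26, 0.12 to 0.40, adjusted p = 0.00565). HYOU1 did not pass, at −0.19 (−0.35 to −0.02, adjusted p = 0.0512), although its libraries did not overlap; it passed in 11 of 22 alternatives (adjusted p 3.50e-05 to 0.138), among them median centring, at −0.35. CRELD2 did not pass either, at −0.14 (−0.36 to 0.08, adjusted p = 0.260). Centring each library on its median put the difference of DNAJB11 at 0.09 and that of CRELD2 at −0.30, which then passed (adjusted p = 0.0118, over a range of 0.0079 to 0.808 among the alternatives).

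Because the genes differed unequally, the makeup of the group's RNA differed too. The 10 genes summed to 2010.6 ± 61.3 FPKM in MI-389, 2716 ± 30.5 FPKM in sunitinib and 4246 ± 423 FPKM in DMSO (SD, n = 3 each). HSPA5 made up 4.75% ± 0.0626 of that sum in MI-389, 7.77% ± 0.207 in sunitinib and 10.5% ± 0.263 in DMSO. The share of CALR lay at 46.2% to 47.7% in MI-389, 43.6% to 44.6% in sunitinib and 36.6% to 38.9% in DMSO. DNAJB11 took 6.02% ± 0.0913 in MI-389, 3.72% ± 0.129 in sunitinib and 3.33% ± 0.164 in DMSO. In MI-389 the J-domain partner was thus the more abundant RNA of the HSPA5 and DNAJB11 pair, per transcript length.

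**Figure D4:**
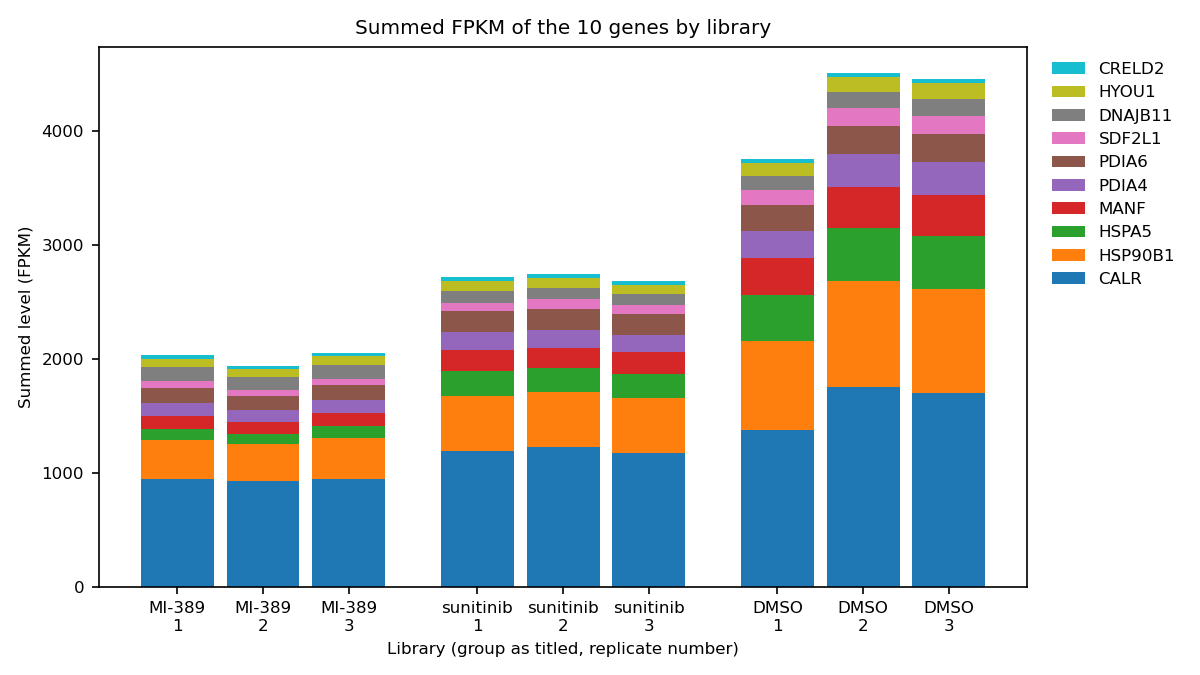
Summed level of the 10 genes in each library (FPKM, stacked bars from 0, 1 colour per gene). The MI-389 bars reach 1941 to 2056 FPKM, the sunitinib bars 2685 to 2746 FPKM and the DMSO bars 3758 to 4515 FPKM.

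The ratio of HSPA5 to its partners was computed within each library, where a scaling of the whole library cancels. HSPA5 over DNAJB11 was 0.787, 0.790 and 0.789 in MI-389, 2.04, 2.05 and 2.18 in sunitinib, and 3.11, 3.27 and 3.12 in DMSO. The ratio was nearly constant within MI-389, and no group overlapped another. HSPA5 over HYOU1 averaged 1.29 in MI-389, 2.49 in sunitinib and 3.68 in DMSO. HSPA5 over MANF averaged 0.854 in MI-389, 1.14 in sunitinib and 1.28 in DMSO. HSPA5 over SDF2L1 averaged 1.80 in MI-389, 2.58 in sunitinib and 2.99 in DMSO. The isomerase ratio, PDIA4 over PDIA6, averaged 0.848 in MI-389, 0.885 in sunitinib and 1.14 in DMSO. For each of 8 ratios in 3 comparisons, the exact two-sided permutation test gave p = 0.1, the smallest that 3 against 3 allows, and 0.1 after Benjamini-Hochberg adjustment over the 24 tests.

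Likeness of pattern was measured over the 9 libraries, which share 3 group means, and is a description. Each gene was correlated (Pearson's r on log2(FPKM + 1)) with the mean standardized profile of the other 9. PDIA4 was closest at 0.997 and HSP90B1 followed at 0.994, while CRELD2 stood at 0.888 and DNAJB11 at 0.550. HSPA5 itself stood at 0.964. Outside the group, the genes averaging 10 FPKM or more that were most like the members' mean profile were TPI1P3 (0.997), MRPS6 (0.996), PDIA3P (0.995), RNASEH2A (0.994), PDIA3 (0.994), PNP (0.994), DUT (0.993) and AKAP1 (0.993). PDIA3 is a further disulfide isomerase of the ER, which pairs with CALR; it averaged 147 ± 7.73 FPKM in MI-389, 185 ± 2.88 FPKM in sunitinib and 254 ± 21.5 FPKM in DMSO (SD, n = 3 each). PDIA3P is its pseudogene, and TPI1P3 is a pseudogene of another family, so their reads can be shared with the parent genes and their values are uncertain.

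The rest of the ER folding pathway was counted in 10 lists of 114 genes, of which 108 were tested, and chaperones outside the ER in a further list. Of the 108 ER genes, 54 passed as lower than DMSO in MI-389 and 19 as higher, with a median log2 difference of −0.19; in sunitinib, 38 passed as lower and 0 as higher, with a median of −0.16. A call of lower was made for 28.3% of all tested genes in MI-389 and 16.9% in sunitinib. For a call of higher the shares were 28.5% in MI-389 and 2.37% in sunitinib. These shares are the background for every list count below. All 11 list medians lay closer to 0 than the median of the 10 genes in both comparisons. The 10 genes and the lists were chosen with earlier results of these data known, so this order is a description. The number of calls in sunitinib depended on single libraries, so its range with each library left out stands in parentheses after each count. The low end was reached without sunitinib replicate 2 in all 11 lists, and in 9 of them without at least 1 other library as well. The high ends of the disulfide, calnexin, N-glycan, translocon and calcium lists came without DMSO replicate 1.

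Of 8 other genes of the HSP70 cycle, 3 were lower (1 without any 1 of the MI-389 libraries, DMSO replicate 2 or DMSO replicate 3) and 2 higher in MI-389 than in DMSO, and 4 were lower in sunitinib (2 to 4). DNAJB9 (ERdj4), a J-domain protein that also holds ERN1 inactive, was lower in both, at log2 −0.30 in MI-389 (adjusted p = 0.00839) and −0.38 in sunitinib (adjusted p = 0.0107). HSPA13, another HSP70 of microsomes, was higher in MI-389 (log2 0.26, adjusted p = 0.00804).

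Of 18 tested disulfide and oxidation enzymes, 11 were lower and 4 higher in MI-389, and 7 were lower in sunitinib (2 to 10). PRDX4, the peroxiredoxin that uses peroxide to form disulfides, averaged 62.4 ± 0.115 FPKM in MI-389, 93.1 ± 1.46 FPKM in sunitinib and 118 ± 5.54 FPKM in DMSO (SD, n = 3 each). Its log2 difference from DMSO was −0.90 in MI-389 (adjusted p = 7.59e-07) and −0.33 in sunitinib (adjusted p = 0.00319), the sunitinib value being −0.20 under quantile normalization and −0.21 under cyclic loess. TXNDC5, a thioredoxin-domain isomerase, was 2.5-fold lower in MI-389 (log2 −1.33, adjusted p = 0.000197). ERO1LB, an oxidase that recharges the isomerases, was higher in MI-389 (log2 0.44, adjusted p = 0.00156, and 0.29 with a pseudocount of 5), as was TMX2 (log2 0.37, adjusted p = 0.00114).

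In the calnexin cycle, 5 of 6 tested genes were lower in MI-389 and 2 in sunitinib (0 to 5). CANX (calnexin), the membrane-bound relative of CALR, averaged 288 ± 11.1 FPKM in MI-389, 290.3 ± 10.3 FPKM in sunitinib and 374 ± 38.7 FPKM in DMSO (SD, n = 3 each). Its log2 difference was −0.37 in MI-389 (adjusted p = 0.00236) and −0.36 in sunitinib (adjusted p = 0.0126, and 0.0503 and 0.0568 without sunitinib replicates 2 and 3, the last the highest over its alternatives and 0.000268 the lowest). Quantile normalization and cyclic loess put CANX at −0.18 and −0.10 in MI-389 and at −0.23 and −0.22 in sunitinib. CANX in MI-389 against sunitinib gave −0.01 (−0.18 to 0.16, adjusted p = 0.906). Of 12 genes of N-glycan transfer, 10 were lower in MI-389 and 5 in sunitinib (1 to 12). STT3B, a catalytic subunit of the oligosaccharyltransferase, was lower in sunitinib (log2 −0.60, adjusted p = 0.00236) and differed by −0.00 in MI-389 (adjusted p = 0.994). Of 18 translocon and signal peptidase genes, 10 were lower and 2 higher in MI-389, and 3 were lower in sunitinib (2 to 11). Under quantile normalization and cyclic loess, 5 of these were higher in MI-389. SEC61B was lower in MI-389 (log2 −0.62, adjusted p = 3.08e-05) and SEC62 higher (log2 0.57, adjusted p = 5.15e-05); SEC61B was at −0.39 under quantile normalization and −0.31 under cyclic loess.

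Of 5 tested proline isomerases, 4 were lower and 1 higher in MI-389, with a median log2 difference of −0.71, and 3 were lower in sunitinib (2 to 3). PPIB (cyclophilin B) averaged 422 FPKM in MI-389, 501 FPKM in sunitinib and 668 FPKM in DMSO, and was lower in both; its log2 difference of −0.66 in MI-389 was −0.43 under quantile normalization and −0.35 under cyclic loess. FKBP14, the exception, was 1.97-fold higher in MI-389 (log2 0.84, adjusted p = 9.80e-05, and 0.54 with a pseudocount of 5). Both tested KDEL receptors, which retrieve luminal chaperones such as HSPA5, were lower in MI-389 (0 without MI-389 replicate 2, and 1 without DMSO replicate 2 or 3) and 1 in sunitinib (0 to 1). Of 10 calcium genes and relatives, 4 were lower and 2 higher in MI-389 (0 higher without any 1 of its libraries, 1 without a sunitinib library or DMSO replicate 1 or 2) and 2 were lower in sunitinib (2 to 5). Quantile normalization and cyclic loess turned the sunitinib medians of the KDEL receptors and of the calcium list positive, at 0.01 to 0.04 on the log2 scale. ATP2A2, the pump that fills the ER with calcium, was lower in both, at log2 −0.70 in MI-389 (adjusted p = 0.000238) and −0.50 in sunitinib (adjusted p = 0.00991).

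The regulators of the response did not follow the chaperones in MI-389. Of 15 sensors and transcription factors, 0 were lower and 6 higher in MI-389 than in DMSO by limma with adjustment; under other scalings up to 3 were lower and 7 to 8 higher, and 2 were lower without DMSO replicate 1. In sunitinib 5 were lower and 0 higher (1 to 5 lower); under other scalings 2 to 3 were lower and up to 3 higher. XBP1, a factor that drives chaperone transcription after splicing, stood at 207, 189.6 and 196 FPKM in MI-389, 84.4, 83.4 and 78.5 FPKM in sunitinib, and 126, 147 and 147 FPKM in DMSO. The MI-389 libraries were the highest and the sunitinib libraries the lowest. XBP1 was 1.42-fold higher in MI-389 (log2 0.50, adjusted p = 0.000229) and 1.70-fold lower in sunitinib (log2 −0.76, adjusted p = 0.000584). Gene-level FPKM does not separate spliced from unspliced XBP1. ATF4, the translation-controlled factor downstream of PERK and other kinases, averaged 1202 ± 22.3 FPKM in MI-389, 759 ± 17.3 FPKM in sunitinib and 671 ± 79.3 FPKM in DMSO (SD, n = 3 each). Its target DDIT3 (CHOP) averaged 244 ± 8.10 FPKM in MI-389, 36.3 ± 4.08 FPKM in sunitinib and 44.7 ± 3.37 FPKM in DMSO. Against DMSO both were higher in MI-389, ATF4 by 0.85 on the log2 scale (adjusted p = 2.30e-05) and DDIT3 by 2.42 (adjusted p = 5.06e-08).

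In ER-associated degradation, which removes proteins that fail to fold, 5 of 14 genes were lower and 2 higher in MI-389, and 6 were lower in sunitinib (3 to 7), with up to 4 higher under other scalings. HERPUD1, a scaffold of the degradation complex and a target of the unfolded protein response, stood at 173, 167 and 169 FPKM in MI-389, 59.6, 53.6 and 55.3 FPKM in sunitinib, and 79.0, 80.9 and 86.2 FPKM in DMSO. As for XBP1, the MI-389 libraries lay above DMSO and the sunitinib libraries below. It was 2.07-fold higher in MI-389 (log2 1.04, adjusted p = 7.63e-07) and 1.46-fold lower in sunitinib (log2 −0.54, adjusted p = 0.00098). EDEM1, which hands misfolded glycoproteins to degradation, was also higher in MI-389 (log2 1.19, adjusted p = 7.59e-07). DERL1 was lower in MI-389 (log2 −0.91, limma, adjusted p = 5.39e-06). DERL3, averaging only 4.61 FPKM in MI-389, was 2.10-fold lower there (log2 −0.95, adjusted p = 0.000398, and −0.62 with a pseudocount of 5). DERL3 was also lower in sunitinib (log2 −0.70, limma, adjusted p = 0.0117, and 0.0530 with no filter). The promoter matches of XBP1 and HERPUD1 are shown for comparison with those of HSPA5 and SDF2L1 above. They were chosen because they carry the same elements and differed in the other direction in MI-389. CANX also carried ERSE and was lower in MI-389 (log2 −0.37, limma, adjusted p = 0.00236). Outside the gene group described here, 19 tested genes carried ERSE or ERSE-II, with XBP1, HERPUD1 and CANX among them. In MI-389 against DMSO, 7 of the 19 were called lower and 4 higher. With 8 bases on each side of the match, the XBP1 stretch (ERSE) lies at chr22:28800595-28800629 (minus) and the HERPUD1 stretch (ERSE-II) at chr16:56932017-56932043 (plus).
XBP1: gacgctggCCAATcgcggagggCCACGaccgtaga
HERPUD1: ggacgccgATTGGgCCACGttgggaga

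Most chaperones outside the ER were lower as well. Of 12 cytosolic and mitochondrial chaperones, 11 were lower and 1 higher in MI-389, with a median log2 difference of −0.96, and 11 were lower in sunitinib (8 to 12), with a median of −0.38. HSPA8, the constitutive cytosolic HSP70, averaged 1063 ± 36.4 FPKM in MI-389, 2872 ± 65.8 FPKM in sunitinib and 4162 ± 519 FPKM in DMSO (SD, n = 3 each). It was 3.91-fold lower in MI-389 (log2 −1.96, adjusted p = 2.98e-07) and 1.45-fold lower in sunitinib (log2 −0.53, adjusted p = 0.00571). HSPA9, the mitochondrial HSP70, was the exception and was higher in MI-389 (log2 0.24, adjusted p = 0.00965), at 0.45 under quantile normalization and 0.51 under cyclic loess. HSPA8 has many pseudogenes, so its reads can be shared with them.

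**Figure D5:**
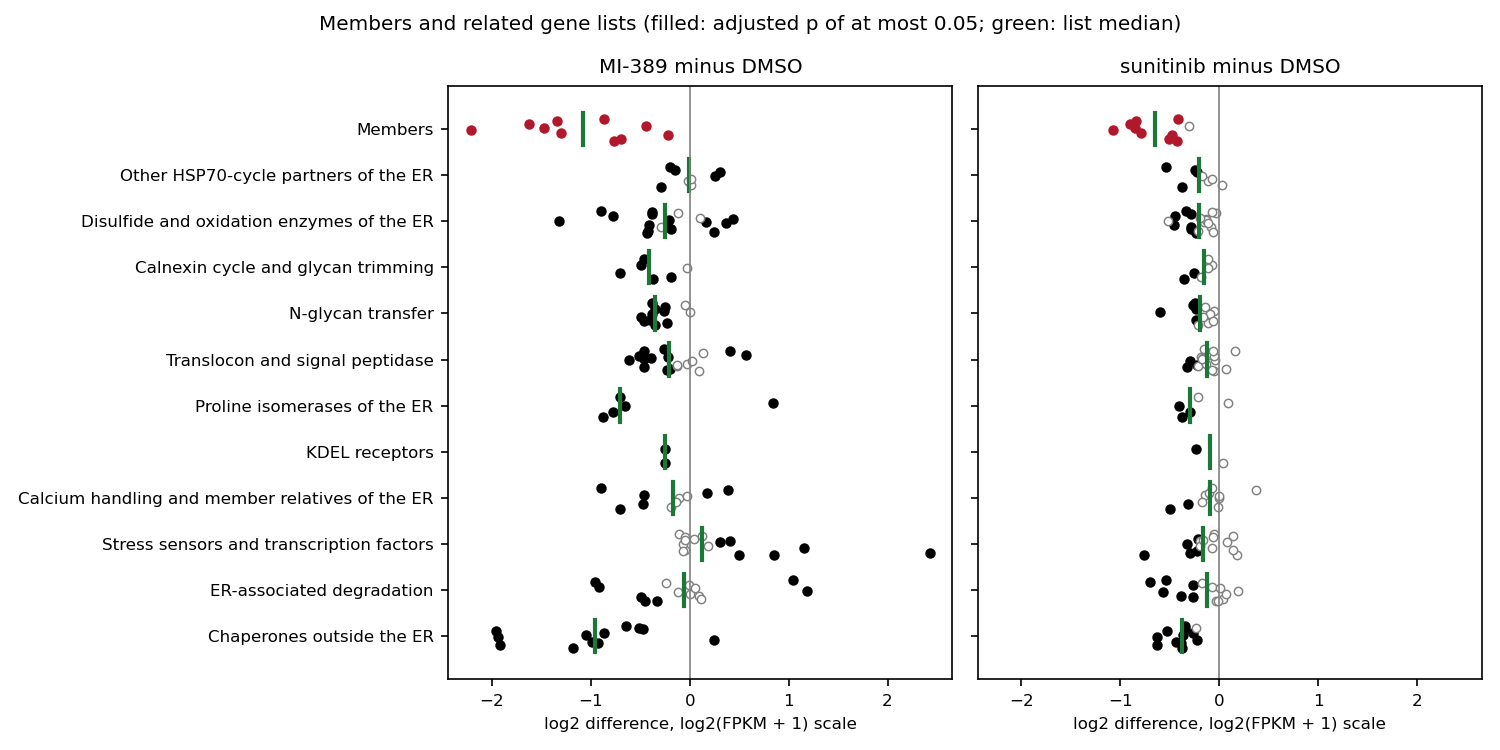
Log2 difference (log2(FPKM + 1) scale) of the 10 genes (top, red) and of each related list (1 point per tested gene, black where the adjusted p was at most 0.05, white otherwise; green bars are medians), for MI-389 minus DMSO and sunitinib minus DMSO. The median of the 10 genes lies at −1.08 in MI-389 and −0.65 in sunitinib, that of chaperones outside the ER at −0.96 in MI-389 and −0.38 in sunitinib, and that of stress sensors at 0.12 in MI-389 and −0.16 in sunitinib.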

How the data were processed

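RNA of MOLT4 cells had ERCC spike-in RNA added by cell number and was made into polyA libraries with the SMARTer v4 kit, which does not mark strand, per the labels' protocols. The submitters' processing notes name HISAT, Cufflinks 2.0.0 and hg19; how libraries were normalized to each other is not given in the sources used here. Values were the authors' deposited FPKM per gene symbol, from which read depth is unknown. Spike-in RNAs (16 of 92, averaging 10 FPKM or more) had median log2 differences from DMSO of −0.03 in MI-389 and −0.01 in sunitinib. Whether the deposited values had already been scaled to these RNAs is unknown, and such scaling would itself give small differences. No pair of libraries was identical.

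Genes averaging 1 FPKM or more were tested with limma 3.58.1 (R 4.3.3) on log2(FPKM + 1), which understates differences of low genes, fitting the 3 groups of all 9 libraries together with a mean-variance trend, two-sided, with Benjamini-Hochberg adjustment over 12301 genes; an adjusted p of at most 0.05 counts as called. Fold values are ratios of mean FPKM. The members, lists and ratios were chosen with earlier results of these data known. Named list genes were drawn from up to 3 called genes with the smallest adjusted p per list and comparison, and the called genes opposite to most of their list. Short non-coding RNAs were tested (249 rows) but left out of correlations between libraries. The script was tested on simulated data. Promoter sequences are from RefSeq (GRCh38.p14), matched by symbol. Alternatives changed the pseudocount (0.1 or 5), the filter (none, or 5 FPKM), the scaling (median centring, quantile, cyclic loess, spike-in RNA), the variance model (untrended, robust), the libraries (the 6 compared alone, each left out) or added the replicate number as a block; omission of short non-coding RNAs was added after seeing the data.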

Additional observations from a re-analysis of the deposited data

How the results depend on the processing

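Across 22 alternatives, the number of the 10 genes called lower was 10 in MI-389 against DMSO with all libraries and 9 to 10 with a library left out. It was 9 to 10 in sunitinib against DMSO, both with all libraries and with a library left out, and in MI-389 against sunitinib it was 7 to 9 with all libraries and 7 to 8 with a library left out. Of 660 differences of single members, 639 kept their side of the threshold, 20 newly passed it, 1 (DNAJB11, above) no longer passed, and 0 reversed. Of 1494 called differences of named list genes, 1462 stayed called, 32 did not, and 0 reversed. Each difference is counted once per alternative. Alternatives that changed only the genes tested, the variance model, the block or libraries outside a comparison left the log2 difference as it was. Those alternatives could therefore not reverse it. Over all tested genes, the number called was 6257 to 8178 in MI-389 against DMSO (6007 to 7250 with a library left out) and 6236 to 8217 in MI-389 against sunitinib (5950 to 7594). In sunitinib against DMSO it was 2370 (2079 lower, 291 higher); it was 1423 with no filter, 1225 with the compared libraries alone, 3677 under quantile normalization (1981 lower, 1696 higher) and 3814 under cyclic loess (1962 lower, 1852 higher), and 929 (without sunitinib replicate 2) to 4244 (without DMSO replicate 1) with a library left out. The cause was not tested. Deviations of same-numbered libraries correlated at −0.085 to 0.174, and those of differently numbered libraries at −0.140 to 0.118. No pairing by replicate number was evident, though so few libraries a group cannot exclude it. With the replicate number as a block, 10, 9 and 7 members were called lower in MI-389 against DMSO, sunitinib against DMSO and MI-389 against sunitinib. Median centring moved the median of all tested genes in MI-389 against sunitinib to −0.08, against 0.08 as deposited. The table gives no read counts, so no limit from depth can be stated.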

Other observations

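Apart from the 10 genes, 19 tested genes carried ERSE or ERSE-II in a RefSeq promoter window, 5 of which (CANX, HERPUD1, NUCB1, SERP1 and XBP1) belong to the related lists. In MI-389 against DMSO, 7 of the 19 were called lower and 4 higher, with a median log2 difference of −0.06. Of all tested genes, 28.3% were called lower and 28.5% higher in that comparison. In sunitinib against DMSO, 6 of the 19 were lower and 0 higher, with a median of −0.18. The shares of all tested genes there were 16.9% lower and 2.37% higher. Whether carriers differ from other genes was not tested. FICD, an enzyme that modifies HSPA5 with AMP, carried ERSE, and its log2 difference was −0.41 in MI-389 (limma, adjusted p = 0.0181) and −0.35 in sunitinib (adjusted p = 0.0779). FICD was chosen after its values were seen.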
